A study of Mus musculus with 12 samples.

Results

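Bdh1, Bdh2, Oxct1 and Acat1 are the genes of ketone body metabolism described here. They were chosen by name, as the 4 rows that carry these symbols among the 43686 rows of a table of ventricular wall RNA-seq. The study removed SDHAF4, an assembly factor of the succinate dehydrogenase complex (complex II), from mouse heart and asked how the transcriptome differed. WT mice carried floxed Sdhaf4 alleles without Cre (Sdhaf4fl/fl, n = 6), and KO mice, their littermates in the study's methods, carried the same floxed alleles together with Ckmm-Cre (n = 6). The sample labels describe both groups as C57BL/6 at postnatal month 2 and call the KO mice Sdhaf4-/-. The paper's text gives a younger age for the RNA-seq. Its reporting summary names male mice for the omics work, either younger still or at about the age of the labels. Ckmm-Cre is driven by the muscle creatine kinase promoter and deletes the floxed alleles in cardiac and skeletal muscle, so the other cells of the ventricular wall should keep the gene. No group carried Cre with intact Sdhaf4, so the presence of Cre and the loss of Sdhaf4 cannot be told apart. The paper reports that hearts of these KO mice enlarged, later dilated with collagen deposition and lost function, and that the mice died early. Effects of the gene loss and of this heart disease cannot be told apart here either. Each library is a separate sample in the labels, and the p-values measure the spread between these samples.

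Ketone bodies (β-hydroxybutyrate and acetoacetate) are made mainly in liver mitochondria and serve as fuel in heart, muscle and brain. In the heart, BDH1 in the mitochondrial matrix oxidises β-hydroxybutyrate to acetoacetate. OXCT1 then moves a CoA group from succinyl-CoA onto acetoacetate and releases succinate, the substrate of complex II. ACAT1 splits the acetoacetyl-CoA that results into acetyl-CoA, which enters the tricarboxylic acid cycle, and it also acts in isoleucine breakdown. BDH2 is a cytosolic dehydrogenase of the same reaction type as BDH1.

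The libraries held 23747014 to 27159228 counts in WT and 26542930 to 31393393 in KO. Levels are given as CPM (counts scaled to a common library size by TMM), and as the deposited FPKM, which also divides by gene length, where genes are compared with each other. Sdhaf4 had 14.3 to 30.3 CPM in the WT libraries and 2.25 to 2.73 CPM in the KO libraries, so the targeted gene followed every label. Cardiomyocyte markers summed to 52604 to 57404 CPM in WT, and hepatocyte markers to under 1 CPM in every library. KO replicate 3 stood apart from the other KO libraries. Its cardiomyocyte markers summed to 58539 CPM against 42733 to 47579 in the other KO libraries, and values that rest on it are given with and without it.

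The genes of consecutive steps of ketone oxidation did not move together in KO hearts. Bdh1 mRNA rose 4.27-fold, from 29.9 ± 12.5 to 127 ± 21.2 CPM (SD, n = 6 each). Oxct1 mRNA, of the next enzyme, stood at 1006 ± 63.3 CPM in WT and 1058 ± 142 in KO and did not pass the test. Acat1 mRNA, of the last enzyme, fell from 825 ± 30.7 to 576 ± 131 CPM. Bdh2 mRNA rose from a very low level, 0.702 ± 0.343 to 1.58 ± 0.390 CPM. By edgeR's quasi-likelihood test at an adjusted p under 0.05, 2 of the 4 genes were higher in KO, 1 was lower and 1 was not called. Of the 17155 rows tested, 51.1% were called in either direction, 25.6% higher and 25.5% lower, so calls as such were common in these hearts. Fewer cells of a type and less RNA per cell cannot be told apart in these bulk samples.

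**Figure D1:**
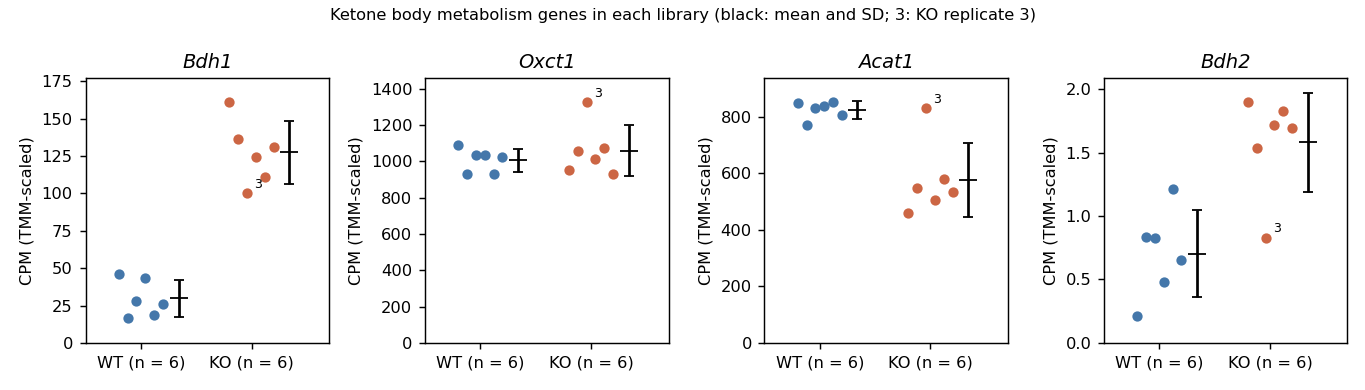
CPM of Bdh1, Oxct1, Acat1 and Bdh2 (y axes, TMM-scaled, from 0) in each WT and KO library (points), with the mean and SD in black and KO replicate 3 marked. The groups lie apart for Bdh1, Oxct1 overlaps between the groups, and KO replicate 3 lies among the WT values for Acat1 and Bdh2.

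Bdh1 lies on the plus strand of chromosome 16 at 30020219 to 30065485 of the C57BL/6NJ assembly (MGP_C57BL6NJ_G0023136). The WT libraries ranged from 16.7 CPM through a median of 27.0 to 46.2, and the KO libraries from 99.99 through 128 to 161. Every KO library was above every WT library, as for 14.9% of the rows tested. The log2 fold change was 2.09 (SE 0.26, edgeR adjusted p = 3.89e-05), a larger absolute change than in 97.1% of the rows tested. It also passed the stricter threshold of the study's methods, an adjusted p under 0.005 with a log2 change over 1, which 5.36% of the rows passed upwards. Leaving out any single library kept it between 1.97 and 2.25.

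Bdh1 also varied among the WT libraries themselves. Its coefficient of variation there was 41.6%, above that of 99.5% of the 5117 rows whose WT mean lay within 2-fold of its own, for which the median was 7.58%. WT replicates 1 and 4 held 46.2 and 43.7 CPM, and the other WT libraries 16.7 to 28.3. In KO the coefficient of variation was 16.6%. The rise was thus several times the WT spread.

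An unnamed row on the opposite strand lies inside the Bdh1 span, at 30030379 to 30032279 of chromosome 16. It held 15 to 47 counts in WT and 122 to 211 in KO, with a log2 fold change of 2.26 (SE 0.27, edgeR adjusted p = 3.26e-06). Whether counting used the strand is not given in the sources used here, and reads of this row and of Bdh1 may have been shared. Its counts came to 4.20% of those of Bdh1.

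Fibroblast markers were also higher in KO. All 7 of the 7 listed markers (Pdgfra, Dcn, Col1a1, Col1a2, Lum, Tcf21 and Postn) rose, with log2 fold changes from 0.61 for Tcf21 to 3.54 for Postn (median 0.93). Their summed level went from 1196 to 1356 CPM in WT to 2266 to 3765 in KO. Endothelial markers were higher for 3 of 5 (Pecam1, Kdr and Egfl7, none lower), and summed to 1208 to 1361 CPM in WT and 1313 to 1607 in KO. Of 4 macrophage and 4 smooth muscle markers, 2 each were lower and none was higher. For comparison, 25.6% of the rows tested were called higher and 25.5% lower. The part of these cell type markers in the change of Bdh1 was not tested.

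Bdh2 lies on the plus strand of chromosome 3 at 142991100 to 143015613 (MGP_C57BL6NJ_G0028317). Its libraries held 5 to 30 counts in WT and 25 to 59 in KO. The WT libraries ranged from 0.211 CPM through a median of 0.738 to 1.21, and the KO libraries from 0.828 through 1.71 to 1.90. KO replicate 3, the lowest KO library, lay within the WT range, and the other KO libraries lay above it. The log2 fold change was 1.16 (SE 0.32, edgeR adjusted p = 0.00584), and it missed the stricter threshold in this fit. It passed that threshold with DESeq2 (1.17, DESeq2 adjusted p = 0.000966). In edgeR it also passed without a filter (adjusted p = 0.00471) and with at least 1 CPM in 6 libraries (adjusted p = 0.00479). The other alternatives run on all libraries missed it. Without KO replicate 3 the log2 fold change of Bdh2 was 1.29 (edgeR adjusted p = 0.00213). The groups then did not overlap, which follows from leaving out the only KO library within the WT range. The share of all rows apart without that library was not computed. The 5 counts of WT replicate 1 give 0.211 CPM by library size, with a 95% Wilson interval of 0.0899 to 0.493, which covers counting error only. Bdh2 had 0.452 FPKM in WT and 1.03 in KO. As means of the ratios within each library, it came to 2.70% of the Bdh1 FPKM in WT and 1.09% in KO. The KO ratios, 0.728% to 1.44%, lay within the WT range of 0.402% to 5.70%.

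Oxct1 lies on the plus strand of chromosome 15 at 980027 to 1126062 (MGP_C57BL6NJ_G0022091). The WT libraries ranged from 929 CPM through a median of 1027 to 1089, and the KO libraries from 929 through 1035 to 1324. The groups overlapped over nearly all of the WT range, and KO replicate 3 was the highest library. The log2 fold change was 0.07 (SE 0.08, edgeR adjusted p = 0.462). Without KO replicate 3 it was -0.01 (adjusted p = 0.937). A minus-strand row overlaps the start of Oxct1 and rose by 0.91 on the log2 scale, but its counts came to 1.14% of those of Oxct1.

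Acat1 lies on the minus strand of chromosome 9 at 54089522 to 54122421 (MGP_C57BL6NJ_G0035305). The WT libraries ranged from 772 CPM through a median of 835 to 851, and the KO libraries from 460 through 541 to 831. KO replicate 3 held the 831 CPM and lay among the WT libraries, whereas the other KO libraries, at 460 to 579 CPM, lay below every WT library. The share of all rows apart in this way without KO replicate 3 was not computed. The log2 fold change was -0.52 (SE 0.11, edgeR adjusted p = 0.00108), and -0.66 without KO replicate 3 (adjusted p = 9.08e-08). The cardiomyocyte marker sum was lower in KO than in WT apart from KO replicate 3. Of the 9 markers measured, 5 were called lower (Tnni3, Pln, Ryr2, Myl2 and Myl3), against 25.5% of the rows tested. The other 4 were not called, with log2 fold changes of 0.24 for Actc1, 0.03 for Tnnt2, -0.14 for Ttn and -0.20 for Myh6. The part of the cardiomyocyte markers in the change of Acat1 was not tested.

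The members were also compared with each other within each library, so that the library scaling nearly cancels. The prior count of 2 added before the log weighs most on Bdh2, which has few counts. The log2 ratio of Bdh1 to Oxct1 rose by 2.11 (SE 0.27, two-sided exact permutation test over libraries, adjusted p = 0.00433 over 6 pairs). That of Bdh1 to Acat1 rose by 2.72 (SE 0.32, exact permutation adjusted p = 0.00433), and that of Oxct1 to Acat1 by 0.61 (SE 0.07, exact permutation adjusted p = 0.00433). Thus the 3 genes of the mitochondrial pathway differed from each other in their change, although Oxct1 by itself was not called. For Bdh1 against Bdh2 the difference of 0.98 (SE 0.55) did not pass (exact permutation adjusted p = 0.108). Bdh2 rose more than Acat1, by 1.74 (SE 0.43, exact permutation adjusted p = 0.00974), and more than Oxct1, by 1.13 (SE 0.42, exact permutation adjusted p = 0.0312). The last of these calls was lost when any of 8 of the 12 libraries was left out: WT replicates 1, 4 and 6 or any KO library other than replicate 3 (adjusted p 0.0519 to 0.0623).

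The deposited FPKM rest on gene lengths of 1359 bases for Bdh1, 1384 for Oxct1, 1420 for Acat1 and 1546 for Bdh2, each shorter than the full model of 3122, 3527, 3405 and 3134 bases. Per gene length, Oxct1 and Acat1 were among the most abundant mRNAs of the hearts and Bdh1 was not. By mean FPKM, Oxct1 ranked 125th in WT and 110th in KO, with 726 ± 46.8 and 764 ± 90.6 FPKM (SD, n = 6 each). Acat1, at 580 ± 14.1 FPKM in WT and 404 ± 82.5 in KO, went from rank 172 to 247. Bdh1, at 21.9 ± 9.02 and 93.9 ± 16.7 FPKM, went from rank 4330 to 1034. Bdh1 FPKM thus came to 1.83% to 4.32% of Oxct1 FPKM in the WT libraries and to 7.69% to 17.2% in the KO libraries. Acat1 FPKM came to 76.0% to 89.0% of Oxct1 FPKM in WT and 46.9% to 61.2% in KO. Bdh1 FPKM came to 2.26% to 5.68% of Acat1 FPKM in WT and 12.6% to 36.6% in KO. None of these ratios overlapped between the groups, KO replicate 3 included, although Acat1 itself did. The groups already lay apart for Bdh1 itself, which the ratios with Bdh1 largely restate. The share of other gene pairs whose ratios lie apart was not computed. The order of the levels, Oxct1 above Acat1 above Bdh1 above Bdh2, was that of the means in both genotypes.

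**Figure D2:**
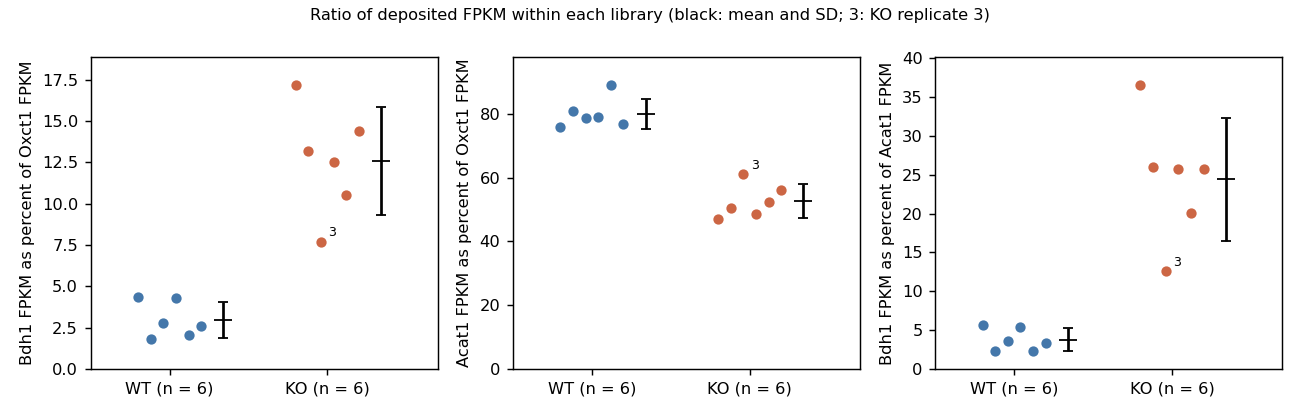
Ratios of deposited FPKM within each library, in percent (y axes, from 0), for Bdh1 to Oxct1, Acat1 to Oxct1 and Bdh1 to Acat1, in WT and KO libraries (points) with the mean and SD in black and KO replicate 3 marked. The groups lie apart in all 3 ratios: up for Bdh1 to Oxct1 and Bdh1 to Acat1, and down for Acat1 to Oxct1.

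Most genes of mitochondrial energy metabolism were lower in KO, so each member was set against 3 groups of genes in the same library. The mean log2 CPM of 9 cardiomyocyte markers fell by 0.33 (SE 0.07), that of 58 nuclear OxPhos subunits by 0.41 (SE 0.05; 55 of 58 called lower) and that of 15 β-oxidation enzymes, which feed the same acetyl-CoA pool, by 0.82 (SE 0.08; 14 of 15 called lower). The median over all rows tested was 0.00. Oxct1 rose relative to each, by 0.39 (SE 0.05), 0.48 (SE 0.07) and 0.89 (SE 0.06), each with an exact permutation adjusted p of 0.00325 over 12 tests. As Oxct1 itself was not called, these differences mostly restate the fall of the groups. Acat1 fell by 0.22 (SE 0.07) relative to the cardiomyocyte markers (exact permutation adjusted p = 0.0142). Against the OxPhos subunits its difference of -0.13 (SE 0.09) did not pass (exact permutation adjusted p = 0.203). That call depended on KO replicate 3, without which the difference was -0.21 (exact permutation adjusted p = 0.00433). Relative to the β-oxidation enzymes Acat1 rose by 0.28 (SE 0.06, exact permutation adjusted p = 0.00325). Bdh1 rose relative to the 3 groups by 2.50, 2.59 and 2.997, and Bdh2 by 1.52, 1.61 and 2.02, with exact permutation adjusted p from 0.00325 to 0.00779.

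**Figure D3:**
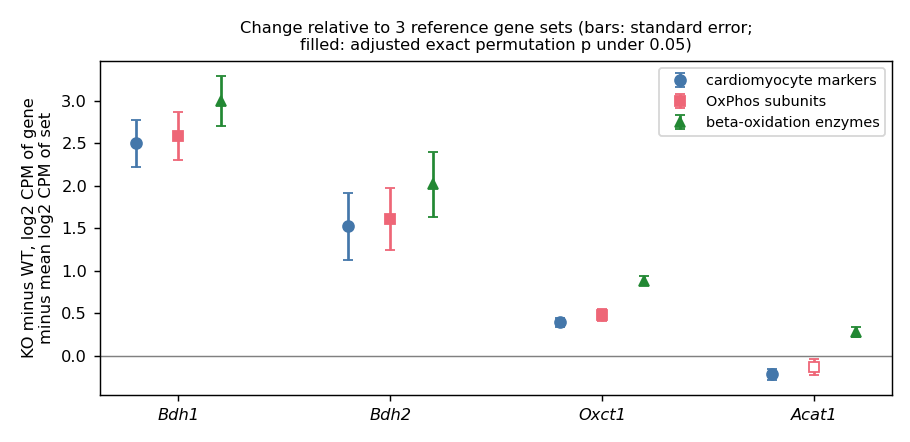
KO minus WT difference of log2 CPM of each member after subtracting the mean log2 CPM of a gene group (y axis), for cardiomyocyte markers, OxPhos subunits and β-oxidation enzymes, with standard errors as bars and filled symbols for an exact permutation adjusted p under 0.05. Bdh1 lies at 2.50 to 2.997, Oxct1 at 0.39 to 0.89 and Acat1 at -0.22 to 0.28, where the open symbol is Acat1 against the OxPhos subunits.

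Other genes of ketone body use and transport were read from a list of 13, of which 11 have a row and 8 were tested. Acat2 and Oxct2b were not analysed here. Of the 8, 3 rose, 1 fell and 4 were not called, with a median log2 fold change of 0.02 against 0.00 over all rows tested. With 51.1% of the rows tested called, 4 of 8 is near the background. The count of genes that fell was 2 without WT replicate 1, WT replicate 3 or KO replicate 3, when Slc16a6 passed as well.

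Cytosolic acetoacetyl-CoA can be formed by acetoacetyl-CoA synthetase (Aacs), which uses ketone bodies for lipid synthesis. Aacs rose from 4.19 ± 0.552 to 6.83 ± 0.473 CPM (log2 fold change 0.70, SE 0.11, edgeR adjusted p = 5.49e-05). Hmgcs1, the cytosolic HMG-CoA synthase of cholesterol synthesis, was not called (log2 fold change -0.10, SE 0.06, edgeR adjusted p = 0.195). Nor was Acat3 (-0.20, SE 0.11, edgeR adjusted p = 0.146), whose row overlaps Tcp1 and whose near-identical paralog Acat2 may share its reads.

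The monocarboxylate transporters carry ketone bodies, lactate and pyruvate across membranes, and their genes moved apart. Slc16a3 (MCT4), known for lactate export from glycolytic cells, rose from 1.69 ± 0.397 to 6.64 ± 1.96 CPM (log2 fold change 1.97, SE 0.21, edgeR adjusted p = 6.6e-07). Slc16a7 (MCT2), a high-affinity carrier, fell from 5.41 ± 1.33 to 1.98 ± 0.606 CPM (-1.44, SE 0.22, edgeR adjusted p = 3.23e-05), with every KO library below every WT library, as for 15.2% of the rows tested. Slc16a1 (MCT1), which was the most abundant of them at 41.0 ± 4.08 FPKM in WT and 45.0 ± 2.80 in KO, was not called (0.13, SE 0.06, edgeR adjusted p = 0.0856). Slc16a6 (MCT7), linked to ketone export from liver, was not called either (-0.30, SE 0.14, edgeR adjusted p = 0.0805). Bsg, of the chaperone basigin that brings MCT1 and MCT4 to the membrane, rose from 1199 ± 66.2 to 1596 ± 248 CPM (0.41, SE 0.09, edgeR adjusted p = 0.000794). The changes of Slc16a3 and Bsg are measured in the whole wall, where the fibroblast markers also rose. The part of those markers in the changes of Slc16a3 and Bsg was not tested.

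The receptor and testis-type genes were near the limit of detection. Ffar3 had no count in any library, which allows up to 0.0956 to 0.126 CPM per library (3 counts). Oxct2a held at most 1 count in a library, and Hcar2 at most 6, and none of these was tested.

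**Figure D4:**
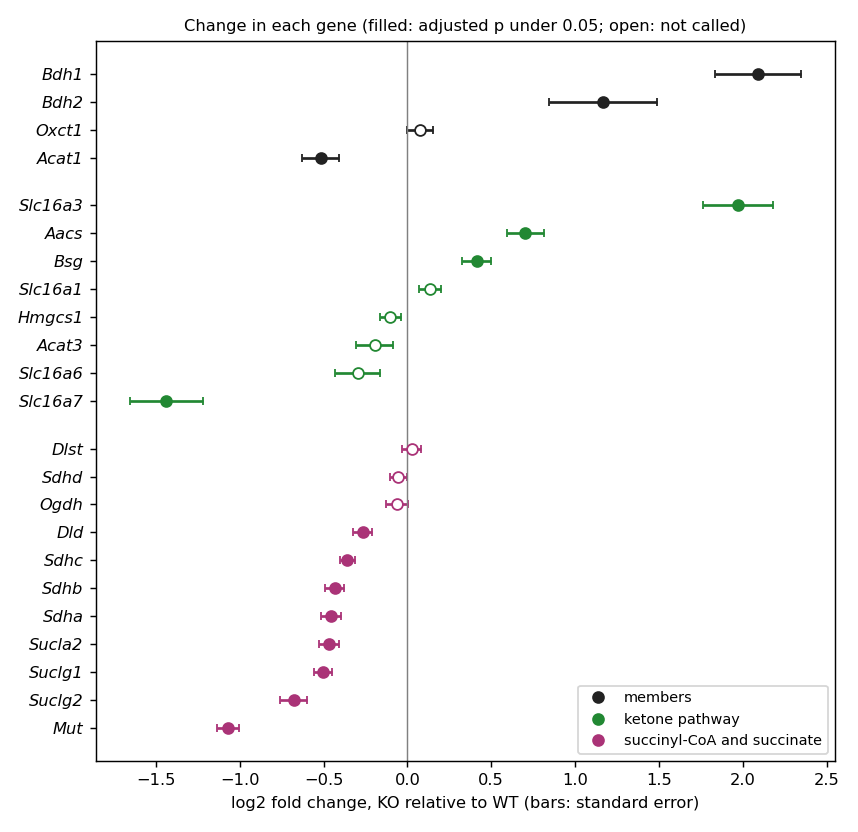
Log2 fold change of KO relative to WT with its standard error (x axis) for the 4 members, 8 further ketone pathway genes and 11 genes of succinyl-CoA and succinate metabolism; filled symbols had an edgeR adjusted p under 0.05. Bdh1 and Slc16a3 lie near 2 on the right, Slc16a7 at -1.44 on the left, and no gene of the succinyl-CoA group was called to the right of 0.

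The OXCT1 reaction uses succinyl-CoA and yields succinate, so the genes that make or use these were read beside Oxct1. Of 11 such genes, none rose, 8 fell and 3 were not called, whereas 25.5% of the rows tested were called lower. The median log2 fold change of the list was -0.43, against 0.00 over all rows tested. Mut, of the mutase that makes succinyl-CoA from methylmalonyl-CoA, fell most, from 156 ± 7.58 to 74.2 ± 8.12 CPM (-1.07, SE 0.07, edgeR adjusted p = 1.49e-09). The succinyl-CoA ligase genes fell as well, Suclg2 by 0.68 (SE 0.08), Suclg1 by 0.50 (SE 0.05) and Sucla2 by 0.47 (SE 0.06) on the log2 scale.

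Of the complex II subunits, Sdha fell by 0.46 (SE 0.06), Sdhb by 0.43 (SE 0.06) and Sdhc by 0.36 (SE 0.05), whereas Sdhd had -0.05 (SE 0.05, edgeR adjusted p = 0.402). Dld, the shared dehydrogenase subunit of the 2-oxoglutarate dehydrogenase complex, fell by 0.27 (SE 0.06). The other components of that complex, Ogdh (-0.06, SE 0.07) and Dlst (0.03, SE 0.06), were not called. The genes that fell had adjusted p from 1.49e-09 to 0.00104 in the edgeR fit.

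The genes whose profile over the 12 libraries was most like that of each member were found by the root mean square (RMS) difference in log2 CPM after each gene's WT mean was subtracted, among 10041 annotated genes with a mean of at least 5 CPM. For Bdh1 these were Bgn (biglycan, a matrix proteoglycan; RMS 0.357), Ace (angiotensin-converting enzyme; 0.367) and Thbs1 (thrombospondin 1; 0.378), against a median of 1.60 over all genes compared. Bgn rose from 169 to 689 CPM on average, Ace from 75.3 to 290.4 and Thbs1 from 11.9 to 61.4. The measure picks genes that share the member's change, so these rises are not a separate result. For Bdh2 the most alike genes were Slc22a4 (RMS 0.340), Noct (0.466) and Slc45a3 (0.475), with a median of 1.02. For Oxct1 they were Slc30a9 (0.057), Efr3a (0.080) and Ptgr2 (0.081), with a median of 0.267. For Acat1 they were Vwa8 (0.083), Mmab (0.089) and Itgb1bp2 (0.091), with a median of 0.469. None of these 12 genes belongs to the ketone or succinyl-CoA lists. Those lists hold few of the 10041 genes compared, so this absence is not read as a result.

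RefSeq promoters on GRCm38.p6, from 250 bases before to 50 after the start, were matched by symbol for 3 of the 4 genes, in 4 entries, and Acat1 had none. The 250 bases before each start are printed because Bdh1 and Bdh2 were both called higher and Oxct1 was not called, 5′ to 3′ with each CpG in capitals. Bdh1 has 2 starts on the plus strand, and the windows before them, chr16:31422047-31422296 and chr16:31428503-31428752, hold 7 and 9 CpG. The window of Bdh2 (chr3:135280971-135281220, plus strand) holds 5 and that of Oxct1 (chr15:4026178-4026427, plus strand) holds 6, against a median of 6 over 32851 promoters. TNAAGGTCA, a site bound by oestrogen-related receptors, occurs on either strand in 421 of the 32851 promoters (1.28%) and was not found in these 4 windows.
Bdh1 upstream start: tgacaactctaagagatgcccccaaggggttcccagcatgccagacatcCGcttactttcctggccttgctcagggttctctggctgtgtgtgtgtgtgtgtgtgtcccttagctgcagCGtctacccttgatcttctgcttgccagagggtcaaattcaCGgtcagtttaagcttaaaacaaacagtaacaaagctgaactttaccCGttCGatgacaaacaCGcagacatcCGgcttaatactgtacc
Bdh1 downstream start: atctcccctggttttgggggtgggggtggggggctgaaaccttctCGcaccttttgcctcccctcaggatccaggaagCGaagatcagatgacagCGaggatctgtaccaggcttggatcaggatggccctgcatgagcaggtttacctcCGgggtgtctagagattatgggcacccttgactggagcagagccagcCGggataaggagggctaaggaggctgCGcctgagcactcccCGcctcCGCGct
Bdh2: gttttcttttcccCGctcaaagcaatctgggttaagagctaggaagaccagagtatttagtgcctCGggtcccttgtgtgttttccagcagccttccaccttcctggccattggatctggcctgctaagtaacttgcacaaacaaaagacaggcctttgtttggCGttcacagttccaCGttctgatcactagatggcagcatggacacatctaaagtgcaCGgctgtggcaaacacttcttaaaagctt
Oxct1: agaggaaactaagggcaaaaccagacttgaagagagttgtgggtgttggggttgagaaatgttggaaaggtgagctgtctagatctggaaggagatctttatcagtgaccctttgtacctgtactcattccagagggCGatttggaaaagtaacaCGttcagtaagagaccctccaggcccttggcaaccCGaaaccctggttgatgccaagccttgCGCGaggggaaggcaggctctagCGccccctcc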

How the data were processed

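Ventricular wall mRNA, purified on poly-T beads, was sequenced for 6 WT and 6 KO mice. The authors mapped reads with HISAT2 2.0.5 (submitters' processing notes, which name mm10), counted them per gene with HTSeq and deposited these raw counts. The deposited FPKM values were made by the authors from counts, a gene length and library size. Identifiers and coordinates are those of the C57BL/6NJ annotation, the start or end of 0 of the 4 genes equals that of the GRCm38 annotation, and coordinates here are the deposited ones. Whether the counting used strand is not given in the sources used here. The authors' own fold changes, p-values and group means were not used, and 0 per-library columns lacked a sample.

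Counts were analysed with edgeR 4.0.16 in R 4.3.3: filterByExpr (17155 rows kept), TMM, robust quasi-likelihood test of genotype, and Benjamini-Hochberg adjustment over all rows kept. Ratios used log2 CPM (prior count 2) and two-sided exact permutation tests over libraries in scipy 1.17.1, whose smallest p for 6 against 6 is 0.00216. Totals were 23747014 to 31393393 counts, and any 2 libraries of a genotype differed by more than sampling noise (chi-square divided by its degrees of freedom, at least 6.99), so each counted as 1 replicate. The analysis was tested on simulated counts.

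The 4 genes, the gene lists, the markers and the tests were chosen with earlier results of these data known. So no count over a list and no test against a gene group is independent support. Named genes were the 4 members, every gene of both lists apart from some that are not reported here, Sdhaf4, and the 3 most alike genes per member. Alternatives were other normalizations, filters and tests (DESeq2 1.42.0, limma-voom in limma 3.58.1), a block on the replicate number, other prior counts, medians of gene groups, FPKM (pseudocount 0.1) and each library left out in turn.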

Additional observations from a re-analysis of the deposited data

Results flagged for a closer look

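Among 48 groups of 6 values examined for the named genes, 6 held a library set apart from the other 5 by Dixon's test, where 2.4 would be set apart by chance at 1 in 20. In KO replicate 3, Bdh2 was low at 0.828 CPM (other KO libraries 1.54 to 1.90), whereas Oxct1 was high at 1324 CPM (929 to 1075), Acat1 at 831 CPM (460 to 579) and Slc16a6 at 27.2 CPM (18.2 to 21.1). Bdh1, at 99.99 CPM, was also lowest in KO replicate 3 (111 to 161 in the others), without passing Dixon's limit. So 4 of the 6 values belong to KO replicate 3, whose cardiomyocyte markers summed to 58539 CPM against 42733 to 47579 in the other KO libraries, and whose fibroblast markers (2439 CPM) lay within the range of the others (2266 to 3765). The remaining cases were Bsg in WT replicate 6, at 1072 CPM (1197 to 1260 in the others), and Sdhaf4 in KO replicate 1, at 2.73 CPM (2.25 to 2.41).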

How the results depend on the processing

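The calls of Bdh1, Bdh2 and Acat1 and their directions held under all normalizations, filters, tests and omissions of 1 library that were run, with log2 fold changes of 1.97 to 2.25, 0.97 to 1.38 and -0.66 to -0.46 when 1 library was left out. Oxct1 was never called and ranged from -0.00636 (without KO replicate 3) to 0.104 in those omissions. Dlst, not called either, had 0.0259 and turned to -0.00337 without WT replicate 5 and to -0.00926 without KO replicate 3, with 0.0468 as its highest value. With 1 library left out, the change of Bdh2 relative to Oxct1 was 0.848 to 1.36, that of Bdh1 relative to Bdh2 0.691 to 1.39 (called without WT replicate 1, adjusted exact permutation p = 0.0208) and that of Acat1 relative to the OxPhos subunits -0.2099 to -0.0814. Slc16a6 passed the threshold under 3 omissions and Slc16a1 under 1, so with 1 library left out 3 to 4 genes of the ketone pathway list rose and 1 to 2 fell. The cause of these changes was not tested. The replicate numbers did not pair the libraries (correlations of same-numbered WT and KO deviations from -0.162 to 0.024). With a replicate block, 4123 rows were higher and 4110 lower, against 4391 and 4376, and no member changed its call. In exact sign-flip tests over same-numbered pairs, whose smallest p is 0.0313, the change of Bdh2 relative to Oxct1 (1.13) had an adjusted p of 0.1125 and that of Acat1 relative to the cardiomyocyte markers (-0.22) 0.0682. Depth limits Bdh2, with 5 counts in its lowest library.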
